A study of Homo sapiens with 5 samples.

Results

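Aminoacyl-tRNA synthetases are the enzymes that attach each amino acid to its tRNA, and with their scaffold proteins they formed the gene set described here. The members were 38 listed gene symbols, written in the older form without a trailing 1, and a member was taken where the gene symbol in the files equalled a listed one. Of these, 37 had a row among the 27189 genes of the files, namely 19 cytosolic enzymes or subunits, 2 scaffold proteins and 16 mitochondrial enzymes. IARS, the cytosolic isoleucine enzyme, was not analysed here. RNA had been sequenced from HT1080 cells, a human fibrosarcoma line, embedded in a type I collagen gel of 2 mg per ml and kept there for 24 h. In LD the gel held 10 cells per cubic mm with no cytokine added. The IL-6 and IL-8 samples held the same 10 cells per cubic mm with recombinant IL-6 or recombinant IL-8, and RM held both cytokines at a ratio of 5 to 2. In HD the gel held 50 cells per cubic mm with no cytokine added. All 5 samples were of the same line, grown in serum before embedding, and each condition was sequenced as 1 library. No difference below could therefore be set against a spread between replicates, and none was tested.

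Each synthetase recognises 1 amino acid and the tRNAs that carry it, so the family as a whole feeds the ribosome. Cytosolic and mitochondrial protein synthesis mostly use separate enzymes encoded by separate nuclear genes, while GARS and KARS each give rise to both forms and are grouped here with the cytosolic enzymes. In animal cells several cytosolic enzymes sit together in a multi-synthetase complex held by AIMP1, AIMP2 and a further scaffold, EEF1E1. The transcription factor ATF4, which is made when amino acids run short, is known to raise a number of the cytosolic enzymes.

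The promoters of these genes carry a feature that the choice of members did not use. Of the 37 genes, 31 had an entry in a RefSeq table of promoters (GRCh38.p14, 250 bases before to 50 bases after each start site), and the letters TGATGNAA, the core of the element that ATF4 binds with a C/EBP partner, were searched on both strands. They were found for 7 of the 31 members (22.6%), against 4.46% of the 27305 genes in the table. Of 11 members listed from textbook knowledge as ATF4-linked, 9 had a promoter entry and 6 of these held a match, and among the other 22 members 1 did (YARS2). The 6 matches are shown because they lie in the promoters of cytosolic members that are compared further on with members holding none. Each is printed on the strand of its gene with 10 bases on either side, and the capitals mark the matched letters or their reverse complement.
AARS, chr16:70289676-70289703, minus strand: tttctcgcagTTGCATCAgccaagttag
CARS, chr11:3057408-3057435, minus strand: ggggcggcggTTGCATCAgattctagga
GARS, chr7:30594835-30594862, plus strand: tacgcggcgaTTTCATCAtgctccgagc
MARS, chr12:57488054-57488081, plus strand: ccggttccggTTGCATCAgcgagggatt
NARS, chr18:57621805-57621832, minus strand: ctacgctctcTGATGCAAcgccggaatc
TARS, chr5:33440957-33440984, plus strand: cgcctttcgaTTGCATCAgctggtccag
In 4 of the 6 (AARS, CARS, MARS and TARS) the matched letters were identical, TTGCATCA, and in NARS the same element lay in the opposite orientation.

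HARS and HARS2, the cytosolic and the mitochondrial histidine enzyme, are transcribed away from each other from start sites that lie 84 bases apart. That stretch is shown because both genes share it as promoter and yet were measured at different levels. It is printed on the plus strand, with HARS leaving to the left and HARS2 to the right, and the capitals mark matches to CCGGAAGT, the element of ETS factors, or its reverse complement.
HARS and HARS2, chr5:140691371-140691454, plus strand: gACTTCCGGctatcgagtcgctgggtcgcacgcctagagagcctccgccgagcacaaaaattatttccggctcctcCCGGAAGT
The stretch held 2 matches, 1 beside each start site. The same letters were found, on either strand, in the promoters of 8 of the 31 members (25.8%) and of 4.95% of all genes in the table. A match to either motif describes these letters only and does not show that a factor was bound.

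The libraries held 7118545 reads in LD, 5096134 with IL-6, 5491616 with IL-8, 6838104 in RM and 926376 at high density. Between 51.5 and 79.6% of these fell on 1 ribosomal RNA entry, RNA5-8S5, so that 449661 reads were left for all other genes in HD and between 1100967 and 1645539 in the others. The members together held 7545 reads in LD, 4548 with IL-6, 4609 with IL-8, 6749 in RM and 638 at high density. A floor of 3 reads came to between 1.82 and 2.72 reads per 1000000 reads outside RNA5-8S5 in the 4 libraries at low density and to 6.67 in HD. Of the 37 members, 32 had at least 10 reads in LD, 31 with IL-6, 32 with IL-8, 26 in RM and 18 at high density. Low members were therefore measured least precisely in HD. Levels are given in TPM (transcripts per 1000000, corrected for transcript length), which allows one gene to be set beside another. Ratios of reads between libraries are of reads per 1000000 reads outside RNA5-8S5, with exact 95% intervals. These intervals and the floor cover counting error only, since the cDNA was amplified as a whole pool and reads are not independent molecules.

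The most abundant member in all 4 libraries at low density was FARSA, the catalytic subunit of the cytosolic phenylalanine enzyme. Its level was 589 TPM in LD, 410 with IL-6, 450 with IL-8, 1043 in RM and 77.0 at high density, on 1490, 713, 847, 2554 and 34 reads. FARSA was thus highest in RM, where its read share was 1.97 times that of LD (interval 1.84 to 2.10), and lowest in HD. FARSB, the other subunit of the same enzyme, was at 16.2 TPM in LD, 19.5 with IL-6, 8.92 with IL-8, 11.8 in RM and 3.84 at high density. The read share of FARSB in RM was 0.77 times that in LD (0.49 to 1.21), 0.67 times that in IL-6 (0.41 to 1.08) and 1.37 times that in IL-8 (0.77 to 2.50), intervals that all include no difference. GARS, the glycine enzyme, came next in LD with 221 TPM, followed by 187 with IL-6, 126 with IL-8, 102 in RM and 35.5 at high density. The abundant members were thus all cytosolic: the 10 with the highest mean level over the 4 libraries at low density were FARSA, GARS, AARS, MARS, QARS, KARS, YARS, HARS, TARS and SARS.

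**Figure D1:**
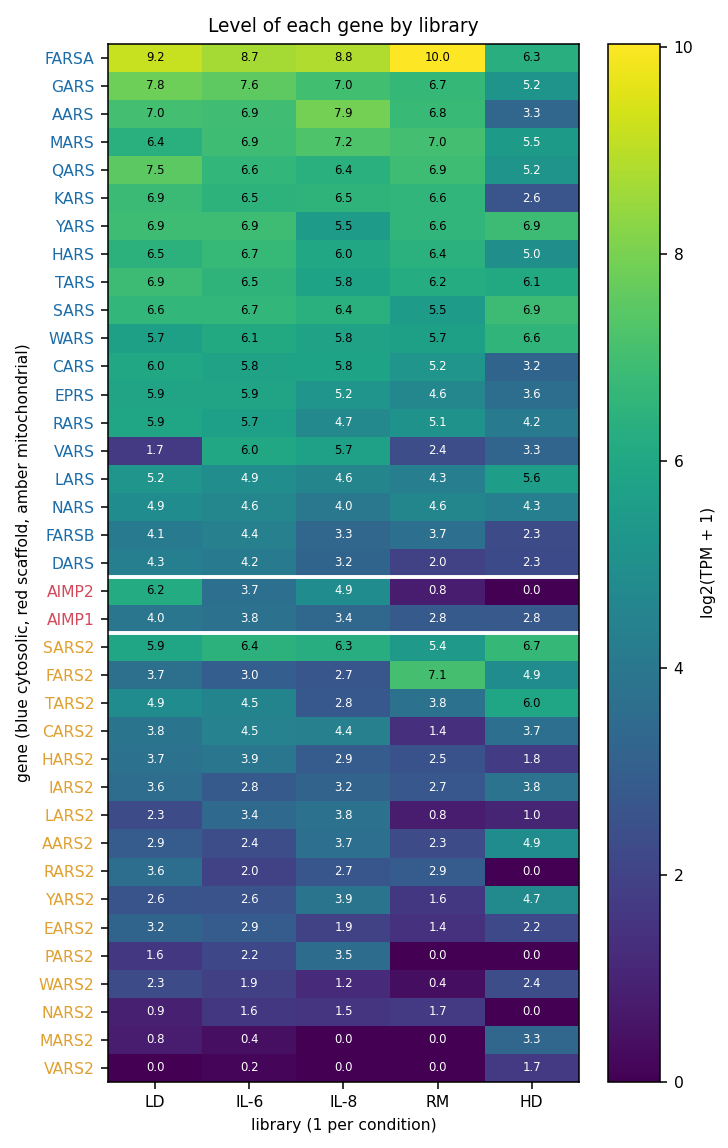
Level of each of the 37 genes, as log2(TPM + 1), in each of the 5 libraries, with 1 library per condition. Rows are ordered by role (cytosolic enzymes, scaffolds, mitochondrial enzymes) and then by mean level at low density. FARSA is the brightest row, FARS2 stands out in RM at 133 TPM, and AIMP2 goes from 71.1 TPM in LD to 0 in HD.

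Differences from LD were taken on the log2(TPM + 1) scale over 21163 genes that reached 1 TPM in any library, all 37 members among them, and a gene was counted as higher or lower where it lay 1 log2 unit or more from LD. Since the pseudocount of 1 is added, the differences of low genes are understated. All 4 comparisons share the LD library. In IL-6, 2 members were higher (9.84% of all genes tested were) and 2 lower (7.47% of all genes). In IL-8, 4 members were higher (7.99% of all genes) and 10 were lower (16.4% of all genes). In RM, 1 member was higher (6.44% of all genes) and 13 were lower (20.4% of all genes). The median difference of the members was -0.17 with IL-6, -0.58 with IL-8 and -0.76 in RM, where the median over all genes tested was 0 in each.

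Most of that gap was shared with well counted genes in general. With at least 10 reads in 1 of the 2 libraries, 12 of 33 members (36.4%) were lower in RM, against 34.9% of all such genes, and 10 of 34 were lower in IL-8, against 26.9%. The members' median relative to such genes was -0.15 in RM and -0.17 in IL-8. RM was the lowest of the 4 libraries at low density for 19 of 37 members, against 27.8% of all genes tested, but for 19 of the 34 members with at least 10 reads in 1 of those libraries (55.9%), against 45.5% of all such genes. With median-ratio scaling the split changed to 5 higher and 7 lower in RM, and to 7 higher and 1 lower in IL-8. It took AIMP1, EPRS, GARS, HARS2, SARS and TARS2 back within 1 log2 unit of LD in RM, and left TARS2 alone lower in IL-8. The family was therefore close to the background in both, and the values that stood apart were those of single genes.

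**Figure D2:**
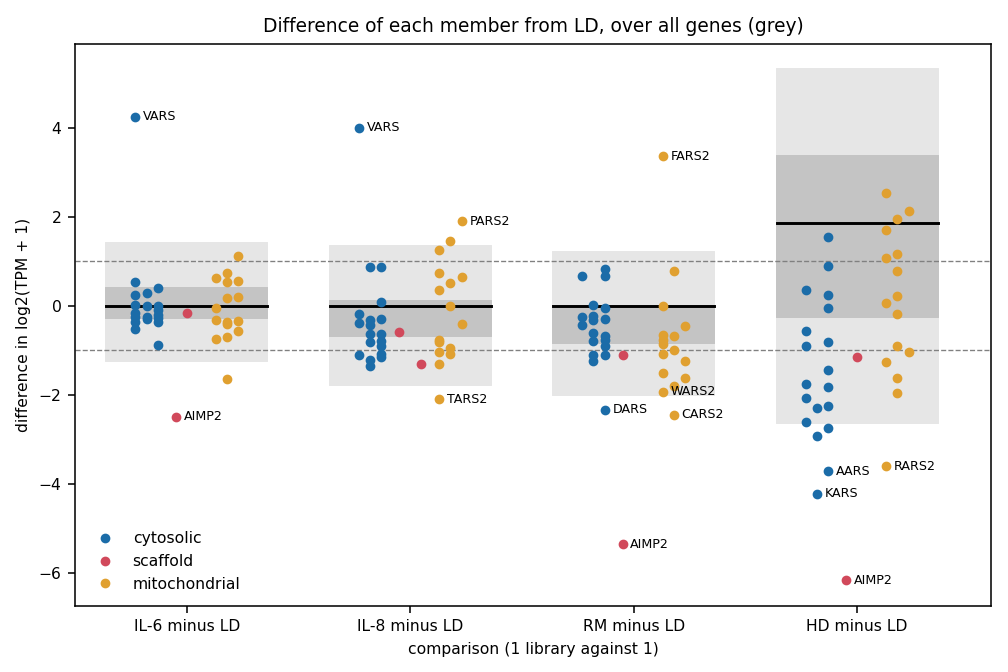
Difference of each member from LD in log2(TPM + 1) for the 4 comparisons, 1 library against 1. Points are members by role, the grey boxes span the 5th to 95th (light) and 25th to 75th (dark) percentiles of all 21163 genes tested with the median as a black line, and dashed lines mark 1 log2 unit; VARS lies above the boxes in IL-6 and IL-8, FARS2 above and AIMP2 below the box in RM, and in HD most members lie below the black line.

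Both scaffold genes had their highest level in LD. AIMP2, which anchors other proteins of the multi-synthetase complex, was at 71.1 TPM in LD, 11.8 with IL-6, 28.2 with IL-8, 0.756 in RM and 0 at high density, on 115, 14, 34, 2 and 0 reads. Its differences from LD were -2.49 with IL-6, -1.31 with IL-8 and -5.36 in RM. The read share in RM was 50.1-fold lower than in LD, with an interval of 13.6 to 419 because only 2 reads were counted. In HD no read was counted, which at the floor of 3 reads comes to 10.5-fold lower, and the interval of the ratio begins at 8.38-fold lower. The 3′ end of AIMP2 overlaps EIF2AK1, a kinase gene on the other strand, which held 138, 89, 60, 71 and 16 reads in the same order of libraries. The counting of strand is not given in the sources used here, so reads from the overlap cannot be assigned to either gene with certainty.

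AIMP1, the other scaffold and the precursor of a secreted cytokine, was at 14.5 TPM in LD, 12.9 with IL-6, 9.37 with IL-8, 6.20 in RM and 6.04 at high density, on 52, 32, 25, 21 and 4 reads. Its differences in RM and HD were both past 1 log2 unit, at -1.11 and -1.14. The read share in RM was 2.16-fold lower than in LD (1.28 to 3.77). With median-ratio scaling the RM difference was -0.45, and with CPM the HD difference, which rests on 4 reads, was -0.64, both no longer past the threshold. The third scaffold of the complex, EEF1E1, is not a member and held at most 9 reads in any library.

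None of the 7 enzymes of the complex with a row was higher in RM, IL-8 or HD, beside 6.44, 7.99 and 61.9% of all genes tested. In the same order 2 (28.6%), 3 (42.9%) and 5 (71.4%) were lower, beside 20.4, 16.4 and 17.9% of all genes tested. All 7 had at least 10 reads in 1 of the pair, and of all such genes 34.9, 26.9 and 26.4% were lower. All 3 in IL-8 (DARS at -0.68, QARS at -0.70 and RARS at -0.78) and EPRS in RM (-0.52) were within 1 log2 unit with median-ratio scaling. DARS, the aspartate enzyme, was at 19.0 TPM in LD, 16.8 with IL-6, 8.38 with IL-8, 2.97 in RM and 3.80 at high density. On 61 reads in LD and 9 in RM, its read share was 5.91-fold lower in RM (2.92 to 13.5). EPRS, which charges glutamate and proline from a single chain, was at 57.3 TPM in LD, 57.6 with IL-6, 36.6 with IL-8, 23.8 in RM and 11.2 at high density. The read share of EPRS in RM was 2.26-fold lower than in LD (1.84 to 2.78). Both genes were at like levels in LD and IL-6 and lower with IL-8 present, alone or with IL-6.

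QARS, the glutamine enzyme, was at 182 TPM in LD, 97.8 with IL-6, 81.4 with IL-8, 119 in RM and 35.9 at high density. RARS, the arginine enzyme, was at 59.6 TPM in LD, 50.2 with IL-6, 25.1 with IL-8, 34.3 in RM and 17.0 at high density. Both had their lowest TPM at low density in IL-8. The read share of QARS, however, was lower in IL-6 (95.4 reads per 1000000, against 123 in IL-8). The reads behind 1 TPM of QARS differed, at a scaled value of 1.56 in IL-6 and 2.28 in IL-8. For this scaling, reads per TPM were divided by the library's median ratio to LD over genes well counted in all 5 libraries. KARS, the lysine enzyme, was at 115 TPM in LD, 88.6 with IL-6, 91.6 with IL-8, 96.7 in RM and 5.21 at high density, the last on 3 reads. MARS, the methionine enzyme, was above LD (81.7 TPM) in all 3 cytokine libraries, with 119 TPM under IL-6, 151 under IL-8 and 130 in RM, and stood at 43.5 in HD. LARS, the leucine enzyme and a sensor of leucine for mTORC1, was within 1 log2 unit of LD in all 4 comparisons.

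Among cytosolic enzymes outside the complex, VARS, the valine enzyme, had the widest difference at low density. It held 3 reads in LD, 73 with IL-6, 69 with IL-8, 12 in RM and 2 at high density, or 2.27, 61.6, 51.7, 4.22 and 8.60 TPM. The differences from LD were 4.26 in IL-6 and 4.01 in IL-8, against 0.68 in RM. The read share in IL-6 was 36.4 times that in LD (12.0 to 180) and in IL-8 33.8 times (11.1 to 168), while in RM it was 0.13 times that in IL-6 (0.06 to 0.23). The gene was thus high with either cytokine alone and low with both or with none. The number of reads behind 1 TPM of VARS, scaled to LD as for QARS above, was 1.73 with IL-6, 1.79 with IL-8 and 2.94 in RM. This means that RSEM assigned the reads to transcripts of different length. The part of that assignment in the difference was not tested.

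AARS, the alanine enzyme, was at 130 TPM in LD, 122 with IL-6, 241 with IL-8, 111 in RM and 9.0 at high density. Its read share in IL-8 was 1.99 times that in LD (1.78 to 2.22), and the difference of 0.88 stayed under 1 log2 unit. YARS, the tyrosine enzyme, moved the other way in IL-8, with 118 TPM in LD, 119 with IL-6, 45.6 with IL-8, 95.3 in RM and 115 at high density. TARS, the threonine enzyme, was also lowest in IL-8, with 118 TPM in LD, 90.7 with IL-6, 55.3 with IL-8, 73.2 in RM and 66.8 at high density. The IL-8 differences of YARS and TARS were -1.36 and -1.08, and with median-ratio scaling -0.92 and -0.63.

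SARS, the serine enzyme, was at 99.0 TPM in LD, 100.1 with IL-6, 80.9 with IL-8, 45.7 in RM and 118 at high density. With GARS it was lower in RM by just over 1 log2 unit, at -1.10 for each gene, and the read shares in RM were 1.96-fold (1.58 to 2.44) and 1.95-fold (1.72 to 2.20) below LD. With median-ratio scaling both differences were -0.38. HARS was at 86.7 TPM in LD, 106 with IL-6, 64.4 with IL-8, 84.4 in RM and 31.3 at high density. WARS, the tryptophan enzyme, which interferon is known to raise, was at 50.5 TPM in LD, 67.6 with IL-6, 54.2 with IL-8, 51.0 in RM and 94.5 at high density. CARS, NARS and FARSB were within 1 log2 unit of LD in IL-6, IL-8 and RM.

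FARS2, the mitochondrial phenylalanine enzyme, was the only member higher in RM by 1 log2 unit or more. It held 30 reads in LD, 12 with IL-6, 10 with IL-8, 324 in RM and 12 at high density, or 11.9, 6.96, 5.35, 133 and 28.2 TPM. The difference in RM was 3.37, and the read share was 12.4 times that in LD (8.51 to 18.7), 20.7 times that in IL-6 (11.7 to 40.5) and 25.3 times that in IL-8 (13.6 to 53.3). With either cytokine alone the level of FARS2 was below that of LD. The gene overlaps LYRM4 on the other strand, which held 14, 16, 16, 36 and 17 reads. In the RefSeq annotation AIMP1, EARS2, LARS2, MARS and YARS also overlap another gene of the files. FARS2 and FARSA charge the same amino acid in the 2 compartments, and both were highest in RM, with 7.85 times as much FARSA as FARS2 there and 49.3 times in LD.

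**Figure D3:**
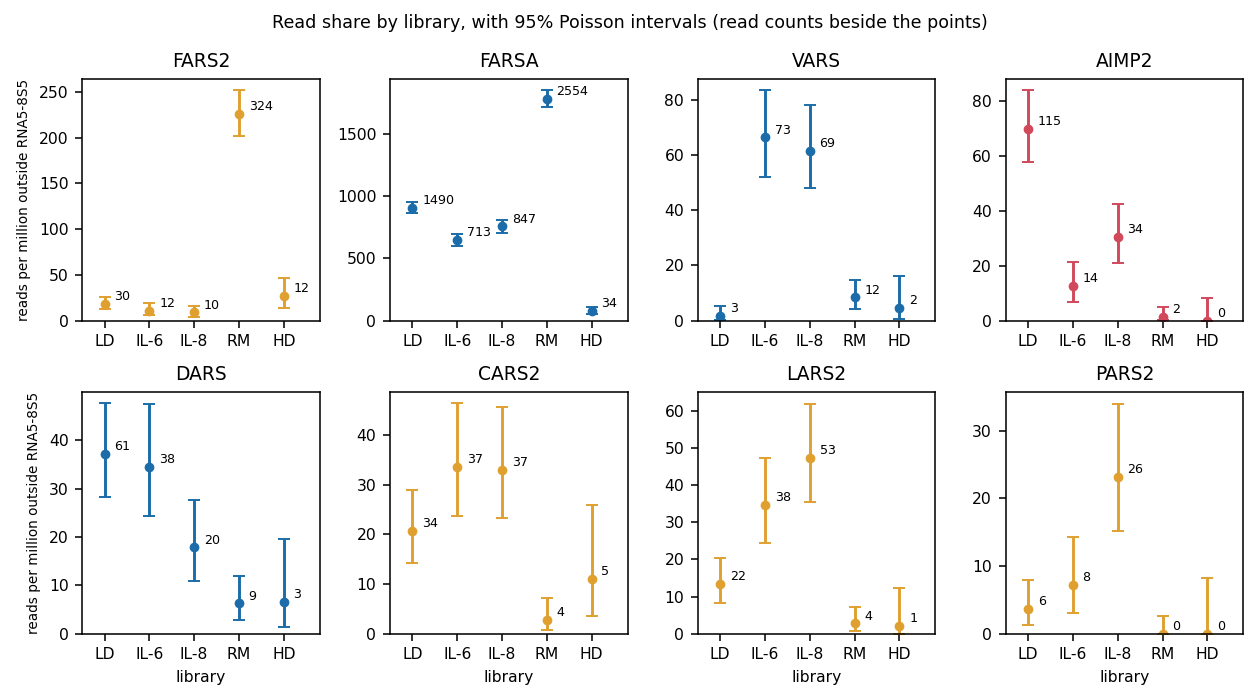
Reads per 1000000 reads outside RNA5-8S5 for 8 members in each library, with exact 95% Poisson intervals (counting error only) and the read count beside each point. FARS2 and FARSA are highest in RM, VARS is high in IL-6 and IL-8 only, AIMP2 and DARS are low in RM and HD, and CARS2, LARS2 and PARS2 are low in RM beside higher values in IL-8.

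Of the 16 mitochondrial enzymes, 7 were lower in RM, and of the 12 with at least 10 reads in 1 of the pair 6 were, beside 20.4% of all genes tested and 34.9% of those with such a read count. CARS2, the cysteine enzyme, was at 13.4 TPM in LD, 21.1 with IL-6, 19.5 with IL-8, 1.62 in RM and 11.6 at high density, on 34, 37, 37, 4 and 5 reads. Its read share in RM was 7.41-fold lower than in LD (2.64 to 28.7), and it overlaps ING1, which held 15, 3, 3, 1 and 1 reads. LARS2, the leucine enzyme, was at 3.90 TPM in LD, 9.74 with IL-6, 12.6 with IL-8, 0.736 in RM and 1.05 at high density. On 22, 38, 53, 4 and 1 reads, its read share was 2.58 times that of LD in IL-6 (1.49 to 4.58), 3.54 times in IL-8 (2.12 to 6.11) and 4.79-fold lower than LD in RM (1.63 to 19.1). LARS2 was thus above LD with either cytokine and below it with both.

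PARS2, the proline enzyme, was at 2.08 TPM in LD, 3.53 with IL-6, 10.6 with IL-8 and 0 in both RM and HD, on 6, 8, 26, 0 and 0 reads. The read share in IL-8 was 6.36 times that of LD (2.56 to 18.9). The 0 reads of PARS2 in RM, set at the floor, come to 1.74-fold lower than LD, and the interval of the ratio begins at 1.03-fold lower. YARS2, the tyrosine enzyme, was at 5.07 TPM in LD, 4.87 with IL-6, 13.5 with IL-8, 2.07 in RM and 25.8 at high density. In IL-8, 3 of the 16 mitochondrial enzymes were higher (7.99% of all genes tested were) and 4 lower (16.4% of all genes). Of the 13 with at least 10 reads in 1 of the pair 4 were lower, against 26.9% of such genes. The higher ones were PARS2, LARS2 and YARS2, with differences of 1.91, 1.47 and 1.25.

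TARS2, the threonine enzyme, went the other way in IL-8, with 28.2 TPM in LD, 21.8 with IL-6, 5.79 with IL-8, 12.8 in RM and 60.9 at high density. Its read share in IL-8 was 4.71-fold lower than in LD (2.62 to 9.20), and TARS, its cytosolic counterpart, was 1.94-fold lower (1.62 to 2.35). EARS2, the glutamate enzyme, was at 8.43 TPM in LD, 6.57 with IL-6, 2.83 with IL-8, 1.70 in RM and 3.63 at high density. WARS2, the tryptophan enzyme, was at 3.89 TPM in LD, 2.69 with IL-6, 1.30 with IL-8, 0.286 in RM and 4.11 at high density, the RM value on 1 read. EARS2 and WARS2 were lower in both libraries that held IL-8, on 7 reads in IL-8 and 8 in RM for EARS2, and 2 and 1 for WARS2. With median-ratio scaling neither was lower in IL-8 by 1 log2 unit.

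HARS2 was at 12.4 TPM in LD, 14.2 with IL-6, 6.66 with IL-8, 4.70 in RM and 2.44 at high density, on 30, 24, 14, 11 and 1 reads. From the promoter stretch printed above, HARS was measured at 6.98 times the level of HARS2 in LD, 7.46 times with IL-6, 9.67 times with IL-8, 18.0 times in RM and 12.8 times in HD. The pair was ordered the same way in every library, and in RM HARS had a difference of -0.04 and HARS2 one of -1.23. The HARS2 difference was -0.60 with median-ratio scaling and -0.84 with a pseudocount of 5. In HD the reads behind 1 TPM of HARS, scaled to LD as for QARS above, were 4.90, against 2.79 to 2.93 elsewhere. The HD difference of HARS, -1.44, became -0.34 with CPM, so that its ratio to HARS2 there depends on the unit. RARS2, the arginine enzyme, was at 11.2 TPM in LD, 2.92 with IL-6, 5.38 with IL-8, 6.63 in RM and 0 at high density, on 28, 5, 10, 16 and 0 reads, and its difference with IL-6 was -1.64. SARS2, the mitochondrial enzyme with the highest mean level over the 4 libraries at low density, was at 58.7 TPM in LD, 86.0 with IL-6, 75.7 with IL-8, 42.6 in RM and 101 at high density. AARS2 and IARS2 stayed within 1 log2 unit of LD in IL-6, IL-8 and RM, and NARS2, MARS2 and VARS2 never held more than 7 reads.

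The HD library differed from the others in more than density. Besides its lower depth, 8 of 9 mesenchymal markers of the line were below LD by 1 log2 unit or more (summed level 1242 TPM, against 5538 to 8513 in the others). All the same, each of the 9 had reads. The 7 epithelial markers summed to 213 TPM in HD and to at most 4.28 in any other library, with OVOL1 at 0, and the 8 leukocyte and erythroid markers to 289 TPM and at most 4.27, with HBA1 and HBA2 at 0. Reads were counted on 20113 genes in HD and on 13469 to 15080 in the others. The part of these differences in the values of HD was not tested, and lower RNA per cell cannot be told apart from fewer cells of a kind.

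Against that background the family was low in HD. The members took 0.123% of all TPM outside RNA5-8S5 in HD and between 0.270 and 0.328% in the other libraries. Of the 37 members, 7 were higher than LD (61.9% of all genes tested were) and 18 lower (17.9% of all genes), with a median of -0.90 where that of all genes was 1.86. Among genes with at least 10 reads in 1 of the 2 libraries, 4 of 32 members were higher, against 48% of such genes, and 17 were lower, against 26.4%. The median of all genes was 1.64 with CPM and 1.45 with median-ratio scaling, and CPM gave 10 members higher and 13 lower. Over the 17 members with at least 10 reads in all 5 libraries, the median relative to all such genes was -0.15, though such a filter leaves out every member that was nearly or wholly undetected in HD.

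The lower members of HD were mostly cytosolic. Of the 19 cytosolic genes 11 were lower (57.9%, against 17.9% of all genes tested). Only 1, VARS on 2 reads, was higher (5.26%, against 61.9%). Of the 16 mitochondrial genes 5 were lower (31.25%) and 6 higher (37.5%), with MARS2 on 7 reads and VARS2 on 2 among the higher. Of the 12 mitochondrial genes with at least 10 reads in 1 of the pair, 4 were lower and 4 higher. The shares of all such genes were 26.4% and 48%. The medians relative to all genes tested were -3.62 for cytosolic and -1.72 for mitochondrial members, both below the background. KARS, with 334 reads in LD and 3 in HD, had the lowest value among the enzymes, with a difference of -4.22 and a read share 30.4-fold lower (10.3 to 148). AARS went from 576 reads in LD to 7 in HD, 22.5-fold lower (10.8 to 56.2), and FARSA was 12.0-fold lower (8.53 to 17.4). RARS2, at 0 reads, was 2.55-fold lower when set at the floor, and the interval of the ratio begins at 1.94-fold lower. By contrast YARS, SARS, LARS, WARS, TARS, MARS and NARS were within 1 log2 unit of LD in HD, on 68, 76, 52, 51, 44, 27 and 11 reads. The read shares of YARS, TARS, MARS and NARS were still 0.50, 0.36, 0.30 and 0.38 times those in LD, with intervals wholly below 1. Those of SARS, LARS and WARS had intervals that include no difference. The cytosolic enzymes thus did not share 1 level of difference.

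The highest mitochondrial members in HD, among those with at least 10 reads in 1 of the pair, were YARS2 with a difference of 2.14 and AARS2 with 1.95. The median over all genes tested was 1.86 in HD, so both lay near it and every other such mitochondrial member below it. AARS2, the alanine enzyme of mitochondria, was at 6.63 TPM in LD, 4.13 with IL-6, 11.8 with IL-8, 3.83 in RM and 28.5 at high density, on 45, 20, 60, 26 and 33 reads. Its read share in HD was 2.68 times that in LD (1.66 to 4.30), and that of YARS2 was 3.20 times (1.45 to 7.00). FARS2 and TARS2 followed with differences of 1.17 and 1.08, but their read shares were 1.46 times (0.68 to 2.94) and 1.42 times (0.93 to 2.12) those in LD, intervals that include no difference.

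Shares within the family do not depend on how a library is scaled. Mitochondrial enzymes took 7.62% of all reads on members in LD (exact 95% binomial interval 7.03 to 8.24), 9.48% with IL-6, 9.66% with IL-8 and 8.65% in RM (7.99 to 9.35), but 26.5% in HD (23.1 to 30.1). Cytosolic enzymes took between 89.1 and 91.0% at low density and 72.9% in HD. The scaffolds took 2.21% in LD (1.89 to 2.57), 1.01% with IL-6, 1.28% with IL-8, 0.341% in RM (0.216 to 0.511) and 0.627% at high density (0.171 to 1.60). The mitochondrial share was thus far higher in HD than at low density, where it lay higher with IL-6 (8.64 to 10.4) and with IL-8 (8.82 to 10.5) than in LD, and the scaffold share was largest in LD. FARS2 held 324 of the 584 mitochondrial reads of RM. Without FARS2, the mitochondrial share was 7.25% in LD (6.68 to 7.86), 4.05% in RM (3.58 to 4.56) and 25.1% at high density (21.7 to 28.7).

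**Figure D4:**
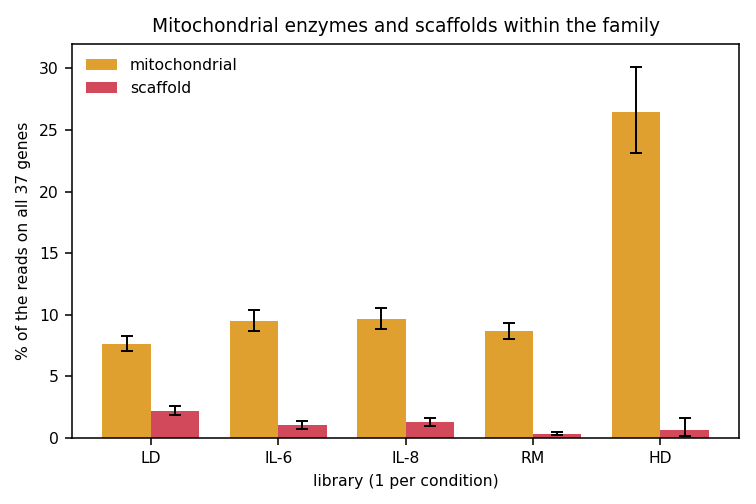
Percent of the reads on all 37 genes that fell on mitochondrial enzymes and on scaffolds, by library, with exact 95% binomial intervals (counting error only). The mitochondrial share is 7.62 to 9.66% at low density and 26.5% in HD; the scaffold share is 2.21% in LD and 0.341% in RM.

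In 13 pairs of a cytosolic and a mitochondrial enzyme for the same amino acid, the cytosolic gene had the higher TPM in all 13 in each library at low density. In HD the mitochondrial gene was higher in 2 pairs. AARS2 exceeded AARS, with an AARS to AARS2 ratio of 0.315 in HD against 19.6 in LD. CARS2 exceeded CARS, with a ratio of 0.727 in HD against 4.67 in LD, on 5 reads for each gene.

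The 6 cytosolic members with the ATF4 and C/EBP letters printed above were not set apart from the 9 cytosolic members that had a promoter entry and no match. Their medians were -0.22 and 0.01 with IL-6, -0.49 and -0.42 with IL-8, -0.49 and -0.43 in RM and -1.75 and -1.83 at high density. Of the 11 ATF4-linked members, 3 were lower in RM and none was higher (27.3% lower, against 20.4% of all genes tested and 34.9% of the well counted). ATF4 itself was at 230 TPM in LD and 181 in RM. Of 18 genes of the ATF4 response to amino acid shortage, 2 were higher in RM (11.1%, against 6.44% of all genes tested) and 4 lower (22.2%, against 20.4%), both near the background. SESN2, an inhibitor of mTORC1, was higher, with 72 reads in LD and 325 in RM (difference 2.14), as was DDIT3, a stress transcription factor whose gene touches that of MARS (1.30). NUPR1 (-2.39), CEBPB (-2.12), PSAT1 (-1.47) and ASNS (-1.23) were lower. In HD 4 of these 18 genes were higher (22.2%, against 61.9% of all genes tested) and 9 lower (50%, against 17.9%). Those shares lay near the 18.9 and 48.6% of the members.

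Among 12 genes that work beside the synthetases, such as tRNA exporters and the enzymes that finish mitochondrial glutamine and formyl-methionine charging, none was higher in RM (6.44% of all genes tested were) and 4 were lower (20.4% of all genes). PET112, a subunit of the mitochondrial amidotransferase that makes glutaminyl-tRNA, held 96 reads in LD, 73 with IL-6, 11 with IL-8, 5 in RM and 9 at high density, with a difference of -3.62 in RM. TRNT1, which adds the CCA end to tRNAs, and XPOT, the exporter of tRNAs, were lower by less, with differences of -1.42 and -1.16. TRNT1 held 18 reads in LD and 6 in RM, a ratio of 0.38 (0.12 to 1.01) whose interval includes no difference. XPOT held 23 and 7, a ratio of 0.35 (0.13 to 0.84). The other lower gene was PSTK, on 3 reads in LD and none in RM. In HD 4 of the 12 were higher (61.9% of all genes) and 3 lower (17.9%), with QRSL1 at 3.86 and MTFMT at 3.62. Of 9 interferon response genes, 3 were lower in RM (20.4% of all genes tested) and none higher (6.44%), IFIT3 (-1.70) and ISG15 (-1.47) among those with at least 10 reads in 1 of the pair. In HD 4 of the 9 were higher (61.9% of all genes) and none was lower, with IFIT1 going from 8 reads in LD to 84 (difference 5.21) and IRF1 from 16 to 73 (4.04). WARS had its highest TPM in HD, but not its highest read share. Its read share in HD was 1.05 times that in LD (0.76 to 1.45), an interval that includes no difference. By read share WARS was highest with IL-6, at 1.36 times LD (1.09 to 1.69).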

How the data were processed

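RNA from 5 HT1080 cultures was sequenced as 1 library each and grouped by the labels. Per the submitters' processing notes and design text, the authors aligned reads with Bowtie2 2.3.1 and quantified genes with RSEM 1.2.25, with GRCh37 (hg19) named as the build. The authors deposited a read count per gene (an RSEM estimated count, written in whole numbers without normalization) and a TPM value. The annotation, strand setting and filters are not given in the sources used here. The cDNA was primed on poly-A and amplified with phi29 polymerase, which can distort the ratio between genes and leaves each difference without a measure of error.

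TPM was rescaled to 1000000 per library and compared as log2(TPM + 1) with a filter of 1 TPM in at least 1 library. Read counts gave exact Poisson, Clopper-Pearson and ratio intervals. No test across conditions was run. All members are accounted for. Values in every library are given for the scaffolds, the 10 members with the highest mean TPM at low density, members at least 1 log2 unit from LD in IL-6, IL-8 or RM with at least 10 reads in 1 of the pair, the 5 highest and 5 lowest in HD, and compared pairs. Other lists were named by the RM difference with the same minimum of reads. FARSB, LARS, SARS2, genes of other lists in HD and the reads of overlapping genes were described after their values were seen. Members and lists were chosen with earlier results of these data known. The steps were tested on simulated data. Python 3.11.15, numpy 2.4.6, pandas 2.3.3 and scipy 1.17.1 were used. Promoters came from RefSeq on GRCh38.p14, another build than that of the files, and were joined by gene symbol.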

Additional observations from a re-analysis of the deposited data

How the results depend on the processing

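With 1 library per condition, no library could be left out. No paired analysis was possible because the labels carry no replicate numbers. Of 312 alternative values for the named members 48 crossed the 1 log2 line and none changed sign. Of 145 values for counts, medians and shares 44 moved. Counts and shares cannot change sign, and no median did. Restriction to 10 reads in 1 of the pair, transcript lengths held as in LD and FARS2 left out were chosen after the data were seen. Counts below are of members at least 1 log2 unit from LD unless another threshold is named, and medians are relative to all genes. Pseudocount 0.1 gave 4 higher in IL-6, 2 higher in RM and a median of -4.13 in HD. Pseudocount 5 gave 1 higher in IL-6, 2 higher and 6 lower in IL-8, 7 lower in RM, and 3 higher in HD with a median of -1.41. Median-ratio scaling gave 7 higher and 1 lower in IL-8 (median -0.17) and 5 higher and 7 lower in RM (median -0.054). A threshold of 2 log2 units left 1 higher and 1 lower in IL-6, 1 higher and 1 lower in IL-8, 3 lower in RM, and 2 higher and 10 lower in HD. With at least 10 reads in all 5 libraries, which kept 17 members, IL-6 had 0 higher and 0 lower, IL-8 0 higher and 5 lower, RM 4 lower (median -0.20, and 7 members lowest there) and HD 3 higher and 5 lower (median -0.15). With 10 reads in 1 of the pair, 4 were higher in HD, and the medians were -0.17 in IL-8 and -0.15 in RM. Without a filter the HD median was -1.66. The mean in place of the median was -0.046 in IL-8. With transcript lengths held as in LD, 2 were higher in RM (median -0.28) and the HD median was -1.77. Summed TPM gave shares of 88.7% for cytosolic and 3.66% for scaffold members in LD and 1.99% for scaffolds in IL-8. Without FARS2 the mitochondrial share in RM was 4.05%. Of these, the smaller counts under the read minimum and the larger threshold follow from fewer members or a wider line, and otherwise the cause was not tested. Depth limits the members under 10 reads in RM and HD most.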
